A study of Mus musculus with 16 samples.

Results

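The 10 Krüppel-like factor genes of the mouse count table are described here, *Klf2*, *Klf3*, *Klf4*, *Klf6*, *Klf7*, *Klf9*, *Klf10*, *Klf11*, *Klf12* and *Klf13*. They were picked by gene symbol from the 54532 genes of the table, with earlier results of these data known. The RNA came from TCF1+CD8+ T cells, that is, CD8+ T cells that keep the stem-like transcription factor TCF1, which were grown from naive CD8+ T cells from the spleens of C57BL/6J mice by repeated activation in a 4-day culture. There were 4 groups of 4 replicates. Unstimulated untreated cells received IL-2 (85 U/ml) for 4 h, and stimulated untreated cells received IL-2 and anti-CD3/CD28 beads at 1 bead per cell for the same time. The corresponding PGE2 groups were exposed to 100 ng/ml prostaglandin E2 (PGE2) for 1 h before that. All 4 groups therefore had IL-2, and the model lacks the tumour in which TCF1+ cells meet PGE2. The labels do not state whether replicates came from separate mice or cultures, so p-values measure only the spread between these samples, which may be technical.

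Krüppel-like factors are transcription factors with C2H2 zinc fingers at the carboxy terminus, which bind GC-rich and CACCC sequences, and the deposited annotation placed all 10 in the zf-C2H2 family. The amino-terminal parts differ and divide the family by partner. KLF2, KLF4, KLF6 and KLF7 mostly activate and use acetyltransferases such as p300 and CBP, KLF3 and KLF12 repress through the corepressor CtBP, and KLF9, KLF10, KLF11 and KLF13 bind the corepressor SIN3A. In T cells KLF2 is known for quiescence and for the genes of lymph node homing and egress, and its gene is switched off by T cell receptor signals and kept on by FOXO1. KLF4 restrains the division of CD8+ T cells. PGE2 acts on T cells through the receptors EP2 and EP4, which raise cAMP, and cAMP drives the factor CREB, whose sites carry the sequence TGACG.

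The summed counts of the 16 samples ranged from 22678254 to 42950763, and replicates of a group differed by more than counting noise, with a chi-square per degree of freedom of 8.46 to 56.8 over 24 pairs. The samples expressed markers of CD8+ T cells. *Cd8a*, *Cd8b1*, *Cd3e*, *Cd3g* and *Tcf7* summed to 2120 to 3966 CPM (counts per gene scaled to the size of the library, here with TMM factors over all 16 samples). The sum was 3086 to 3966 in unstimulated untreated and 2120 to 2298 in stimulated PGE2 samples. It does not give the level of *Tcf7*, the gene of TCF1, on its own. *Cd4* and *Foxp3*, the CD4+ T cell markers, summed to 3.19 to 9.52 CPM, and the lists for B, myeloid, NK and erythroid cells reached at most 5.37 CPM. Endothelial cells also make KLF2 and KLF4. Of their markers, *Cdh5* was at most 0.529 CPM, and *Pecam1*, which T cells express as well, ranged from 47.5 to 164 CPM. In bulk RNA, fewer cells that express a gene and less of its RNA per cell cannot be told apart.

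The sequence upstream of the start of the gene is shown first for 5 members, *Klf2*, *Klf3*, *Klf4*, *Klf9* and *Klf13*. These include every promoter with TGACG except that of *Klf12*, so they do not represent the 9 promoters searched. The promoters of *Klf6*, *Klf7* and *Klf11*, which held none of the motifs searched, are not printed. Of the 10 genes, 9 had a RefSeq promoter (GRCm38.p6), and *Klf10* had none in the table used. The 250 bases before each start were searched on both strands. The full cAMP response element TGACGTCA was in none of the 9, against 1.55% of the 32851 RefSeq promoters. Its short form TGACG, which every full element also holds, was in 5 of the 9 (*Klf2*, *Klf4*, *Klf9*, *Klf12* and *Klf13*), against 17.8% of all promoters. The FOXO motif GTAAACA was in that of *Klf9* (all promoters, 3.17%), and the Krüppel-like factor motif GGGTGTG was in that of *Klf12* (6.93%). The promoters of *Klf3*, *Klf6*, *Klf7* and *Klf11* held none of the 4. The RefSeq starts of *Klf7* and *Klf12* lie 893 and 134883 bases inside the gene from the start in the deposited table, so their windows are not upstream of the counted gene. Of the other 7 windows, 4 held TGACG and 0 held GGGTGTG. The RefSeq starts of *Klf3*, *Klf11*, *Klf2* and *Klf6* lie 133, 97, 29 and 7 bases inside the counted gene. Only the rest of these windows is upstream of it, 117 bases for *Klf3* and 153 for *Klf11*. A match is a description of the letters and no evidence that a factor binds there. Printed 5′ to 3′ on the strand of the gene, with motif letters in capitals (CGTCA is TGACG on the other strand) and with the annotated exons left out, the sequences lie at chr8:72318812-72319032 (plus strand), chr5:64803271-64803387 (plus), chr4:55532476-55532725 (minus), chr19:23140976-23141225 (plus) and chr7:63938916-63939165 (minus).
Klf2: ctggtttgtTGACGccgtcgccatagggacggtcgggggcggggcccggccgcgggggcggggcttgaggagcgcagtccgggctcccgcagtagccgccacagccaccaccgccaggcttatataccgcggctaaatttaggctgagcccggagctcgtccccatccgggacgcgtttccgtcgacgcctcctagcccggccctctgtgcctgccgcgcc
Klf3: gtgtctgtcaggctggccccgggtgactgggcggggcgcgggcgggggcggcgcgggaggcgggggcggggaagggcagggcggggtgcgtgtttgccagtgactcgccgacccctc
Klf4: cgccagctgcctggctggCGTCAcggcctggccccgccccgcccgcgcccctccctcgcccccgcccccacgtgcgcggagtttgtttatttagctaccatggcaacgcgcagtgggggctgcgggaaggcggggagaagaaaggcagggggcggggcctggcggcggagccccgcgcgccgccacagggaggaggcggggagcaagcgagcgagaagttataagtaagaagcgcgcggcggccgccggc
Klf9: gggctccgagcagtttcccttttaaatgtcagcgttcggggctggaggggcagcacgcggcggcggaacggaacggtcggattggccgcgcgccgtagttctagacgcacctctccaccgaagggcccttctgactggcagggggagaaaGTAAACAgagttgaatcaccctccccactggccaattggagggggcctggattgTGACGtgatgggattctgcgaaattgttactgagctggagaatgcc
Klf13: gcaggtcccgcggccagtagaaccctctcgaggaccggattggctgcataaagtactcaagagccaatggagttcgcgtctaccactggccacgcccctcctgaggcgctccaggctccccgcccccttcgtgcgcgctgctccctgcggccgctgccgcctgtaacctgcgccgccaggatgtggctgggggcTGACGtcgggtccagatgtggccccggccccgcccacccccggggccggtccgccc
The matches lay 241 to 237 bases before the RefSeq start in *Klf2*, 232 to 228 in *Klf4*, 56 to 52 in *Klf13* and 46 to 42 in *Klf9*, whose FOXO motif lay 100 to 94 bases before the start.

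Among the 10 genes, 3 supplied most of the RNA. Levels are compared between genes as FPKM, which the authors derived from counts and gene length. In unstimulated untreated cells *Klf2* was highest at 95.8 ± 18.2 FPKM (SD, n = 4). *Klf6*, a factor induced early in many activated cells, followed at 34.4 ± 3.49 and *Klf13*, known as an activator of *Ccl5* in T cells, at 34.0 ± 3.82 FPKM, and these neighbours overlapped. *Klf10* (5.05 ± 0.567) and *Klf3* (4.33 ± 1.29) also overlapped, and *Klf11* (1.61 ± 0.134), *Klf7* (1.57 ± 0.226) and *Klf9* (1.24 ± 0.0985) lay near 1 FPKM, with an overlap of the first pair. *Klf4* stood at 0.322 ± 0.103 and *Klf12* at 0.0726 ± 0.0130 FPKM. The order changed with stimulation. In stimulated untreated cells *Klf6* led at 59.6 ± 4.66 FPKM, *Klf2* (15.6 ± 1.35) and *Klf13* (13.5 ± 0.956) overlapped, *Klf9* had moved up to the fifth place with 3.39 ± 0.279, and *Klf3* took the eighth place with 0.723 ± 0.0992 FPKM, where its range overlapped that of *Klf11*. With PGE2 the stimulated order was *Klf6* at 67.0 ± 7.81, *Klf2* at 28.8 ± 3.43 and *Klf13* at 16.4 ± 1.40 FPKM with no overlap among them, and *Klf3* took the sixth place at 1.52 ± 0.0444.

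**Figure D1:**
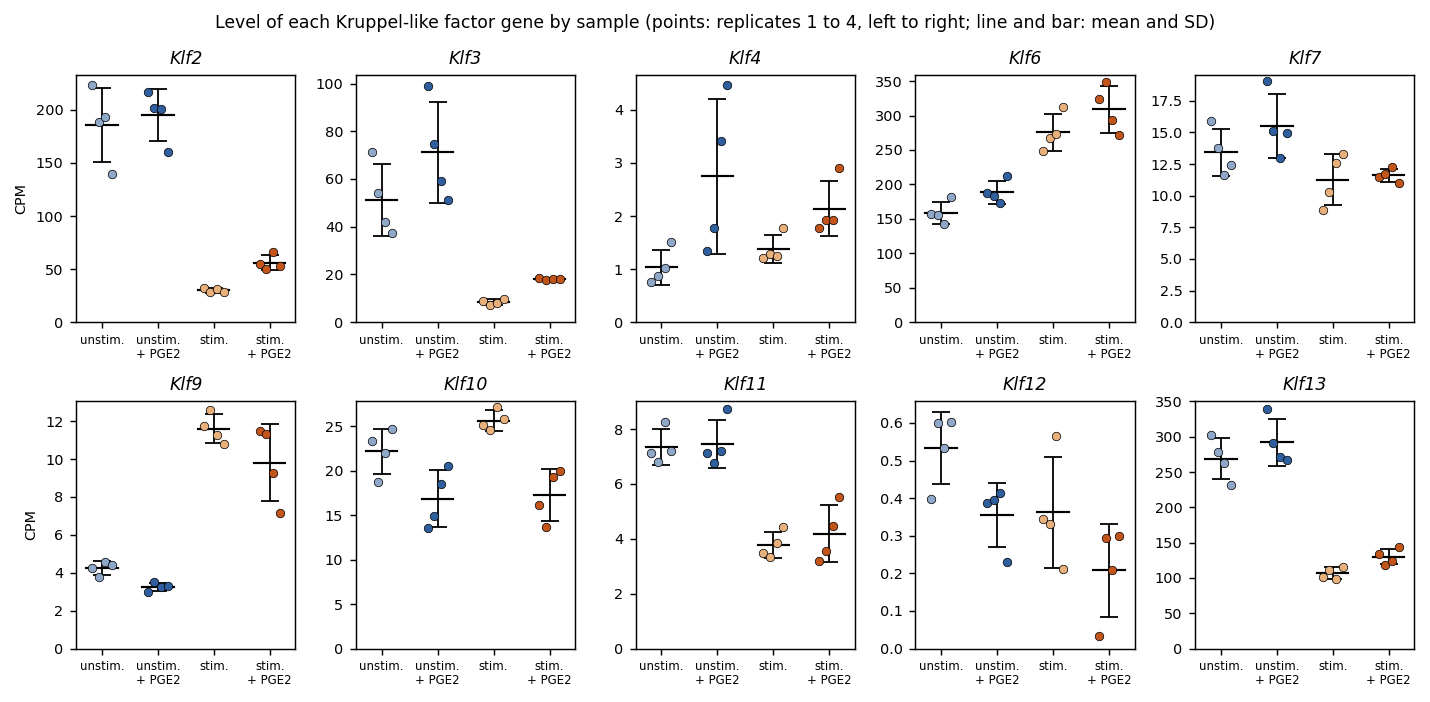
Level of each gene in CPM (vertical axes, each from 0) in unstimulated and stimulated cells without and with PGE2, with 1 point per sample and the mean and SD of 4 replicates. *Klf2*, *Klf3*, *Klf11* and *Klf13* are lower and *Klf6* and *Klf9* higher in all stimulated samples than in all unstimulated ones, and *Klf2* and *Klf3* are higher with PGE2 in all stimulated samples.

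As a share of the summed FPKM of the 10 genes, *Klf2* made up 53.4% ± 4.62 in unstimulated untreated cells and 15.4% ± 1.88 in stimulated untreated cells, while *Klf6* made up 19.6% ± 4.01 and 58.8% ± 2.18. With PGE2 the share of *Klf2* in stimulated cells was 23.4% ± 2.92, and its 4 samples (20.3% to 27.3%) lay above the 4 without PGE2 (13.2% to 17.6%). The share of *Klf10* in stimulated cells was 5.77% ± 0.352 without and 3.20% ± 0.656 with PGE2. In unstimulated cells the share of *Klf2* was 51.8% ± 3.58 with PGE2, within the range of the untreated samples. The sum itself was 178 ± 20.8 FPKM in unstimulated untreated, 196 ± 15.3 in unstimulated PGE2, 101 ± 4.19 in stimulated untreated and 123 ± 5.95 in stimulated PGE2 samples. In every stimulated sample *Klf6* exceeded *Klf2*, by 1.86 to 4.68 times, and in every unstimulated sample it was below *Klf2*, at 0.295 to 0.557 times its FPKM. These shares are given as a description with no test. They cover the 10 genes only and leave out *Klf16*, which was at 32.7 to 52.2 FPKM in stimulated untreated samples.

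**Figure D2:**
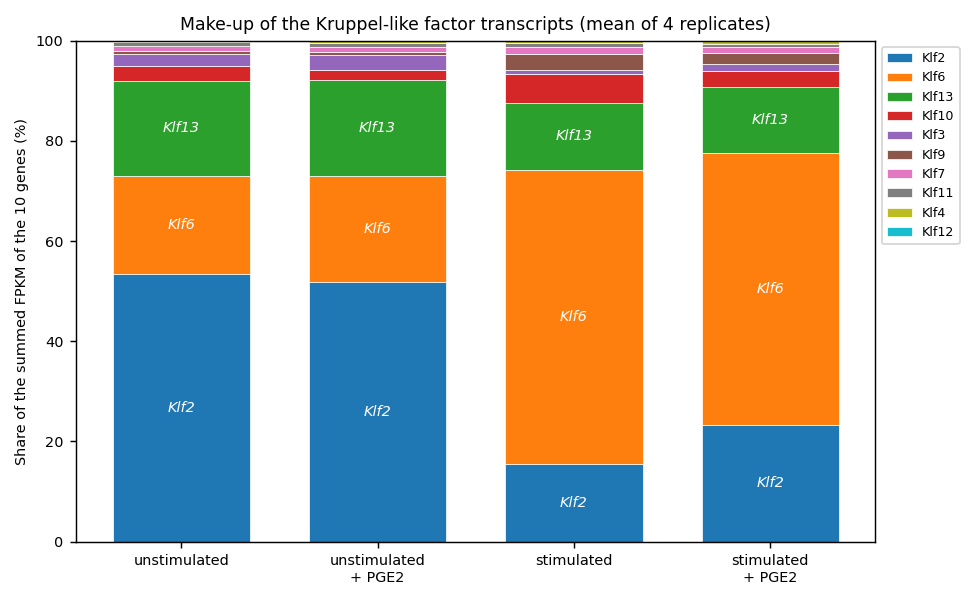
Mean share of each gene (vertical axis, percent) in the summed FPKM of the 10 genes for the 4 groups, each bar the mean of 4 replicates. *Klf2* takes 53.4% of the bar of unstimulated untreated cells, and *Klf6* takes 58.8% of that of stimulated untreated cells.

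PGE2 in stimulated cells raised *Klf2* and *Klf3* and lowered *Klf10* in the fit without the replicate number as a block. Of 13922 genes tested with edgeR, 9.84% passed an adjusted p (Benjamini-Hochberg over all tested genes) of 0.05. Among the 9 members tested, 3 did so, 2 higher (6.04% of all genes) and 1 lower (3.80%). With the replicate number as a block 5 of the 9 passed, beside 39.8% of all genes. The median log2 fold change of the 9 was 0.17, against -0.0061 for all genes. *Klf12* did not pass the filter on low counts.

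Of the activator group, *Klf2* was at 32.7, 28.6, 31.5 and 28.03 CPM in stimulated untreated replicates 1 to 4, and at 54.8, 50.2, 66.2 and 52.9 CPM with PGE2. The lowest PGE2 sample was well above the highest untreated one. *Klf2* rose 1.87-fold (log2 fold change 0.90, SE 0.0954, adjusted p = 0.000515). *Klf4* was at 1.22, 1.28, 1.25 and 1.77 CPM without and at 1.78, 1.92, 1.93 and 2.90 CPM with PGE2, from 31 to 68 reads per sample. The groups met without overlapping, and replicate 4 was the highest of both. The log2 fold change of *Klf4* was 0.63 (SE 0.224, 95% interval 0.14 to 1.13) and its adjusted p was 0.102. *Klf6*, with 248 to 312 CPM without and 271 to 349 CPM with PGE2, and *Klf7*, a factor of neuronal growth with 8.89 to 13.3 and 11.01 to 12.2 CPM, overlapped between the groups. Their log2 fold changes were 0.17 (adjusted p = 0.284) and 0.05 (adjusted p = 0.825), with 95% intervals of -0.048 to 0.40 and -0.25 to 0.36.

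Of the CtBP-binding repressors, *Klf3* was at 9.10, 7.12, 8.07 and 9.92 CPM in stimulated untreated cells, and at 18.5, 17.5, 17.97 and 18.1 CPM with PGE2. All 4 PGE2 samples lay within 1 CPM of each other and far above the untreated ones. *Klf3* was the 1 member past both the adjusted p and a fold change of 2, the thresholds that the study set for a differentially expressed gene (DEG), which 1.75% of all genes passed. It rose 2.12-fold (log2 fold change 1.08, SE 0.109, adjusted p = 0.000407). The paper, which used DESeq2, named both *Klf3* and *Klf4* as increased by PGE2 in its comparison of stimulated cells. Here *Klf4* was not past the adjusted p in the main edgeR fit, or in DESeq2 with or without the replicate number as a block. Its fold change in the main fit was 1.55, below 2. The reason for the difference from the paper was not tested.

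Of the SIN3A-binding group, *Klf10*, known as a gene induced by TGF-β, was at 25.1, 24.5, 27.2 and 25.8 CPM without and at 16.2, 13.6, 19.3 and 19.98 CPM with PGE2. Each PGE2 sample was below each untreated one. *Klf10* decreased by 0.56 on the log2 scale (SE 0.118, adjusted p = 0.0172), and without stimulated untreated replicate 3 the adjusted p was 0.0525. *Klf13* was at 101, 111, 99.2 and 116 CPM without and at 134, 119, 125 and 144 CPM with PGE2. Its groups did not overlap either, the log2 fold change was 0.29 (95% interval 0.11 to 0.47), and the adjusted p was 0.0511. Without stimulated untreated replicate 4 it was 0.0431, and over all alternatives it ranged from 6.74e-05 to 0.130. *Klf9*, induced by glucocorticoid and thyroid hormone, had a log2 fold change of -0.23 (adjusted p = 0.328), and *Klf11*, the closest relative of *Klf10*, one of 0.16 (adjusted p = 0.620). Over the 10 genes the groups did not overlap in 5, of which 4 were higher with PGE2, and the same held for 17.0% of the 15096 genes kept over all samples.

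Samples with the same replicate number deviated together in this comparison, so the fit was also made with the number as a block. The block brought 39.8% of all 13922 genes past the adjusted p, and 5 of the 9 members, the 3 above with *Klf4* (adjusted p = 0.0125, 0.0125 to 0.251 over its alternatives) and *Klf13* (0.00159).

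**Figure D3:**
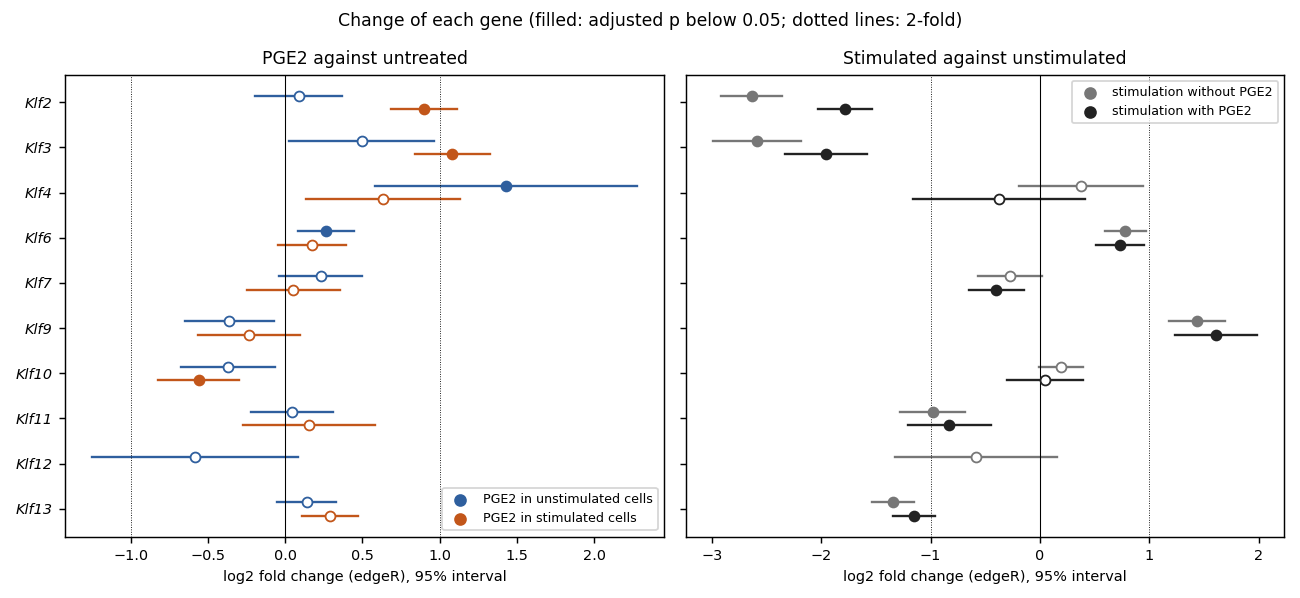
Log2 fold change of each gene (horizontal axes) with its 95% interval from edgeR, for PGE2 against untreated cells on the left and for stimulated against unstimulated cells on the right, where filled points have an adjusted p below 0.05 and dotted lines mark a fold change of 2. *Klf2*, *Klf3* and *Klf10* are filled for PGE2 in stimulated cells, and *Klf4* and *Klf6* for PGE2 in unstimulated cells.

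In unstimulated cells PGE2 raised *Klf4* and *Klf6* in the fit without the replicate number as a block. There 2 of the 10 members passed, where 28.4% of 14505 tested genes did (12.9% higher and 15.5% lower). With the block 7 of the 10 passed, beside 47.8% of all genes. The median log2 fold change of the 10 was 0.11, against -0.0010 for all genes. *Klf4* was at 0.749, 0.865, 1.013 and 1.505 CPM in untreated replicates 1 to 4 and at 1.33, 1.77, 3.41 and 4.48 CPM with PGE2, from 17 to 50 and from 38 to 176 reads. The spread with PGE2 was wide, and its lowest sample lay below the highest untreated one. *Klf4* rose 2.69-fold (log2 fold change 1.43, SE 0.385, adjusted p = 0.0164), the 1 DEG among the 10 (3.38% of all genes), and its adjusted p ranged from 4.68e-06 to 0.136 over the alternatives.

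*Klf6* was at 157, 155, 142 and 181 CPM in unstimulated untreated cells and at 187, 183, 172 and 212 CPM with PGE2. The groups overlapped through untreated replicate 4. Its log2 fold change was 0.27 (SE 0.0827, adjusted p = 0.0315), and within replicate numbers the difference in log2 CPM was 0.26, 0.23, 0.28 and 0.22. The adjusted p was 0.0684, 0.0661 and 0.0900 without untreated replicates 1, 2 and 3 and 0.0792 without PGE2 replicate 4, at log2 fold changes of 0.26, 0.27, 0.22 and 0.20. With the replicate number as a block it was 7.07e-06, and over all alternatives it ranged from 2.39e-10 to 0.0951. *Klf2*, in contrast to stimulated cells, was at 223, 188, 193 and 139 CPM without and at 217, 202, 201 and 160 CPM with PGE2. These samples overlapped almost entirely, and the log2 fold change was 0.09 (95% interval -0.20 to 0.37, adjusted p = 0.668).

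*Klf3* was at 71.1, 54.2, 42.2 and 37.3 CPM in unstimulated untreated replicates 1 to 4 and at 99.2, 74.8, 59.3 and 51.3 CPM with PGE2. Both groups spread widely in the same order of replicate numbers. The log2 fold change of *Klf3* was 0.49 with an adjusted p of 0.109 (0.0279 without untreated replicate 1, and 0.0440 without PGE2 replicate 4). Within replicate numbers the difference in log2 CPM was 0.48, 0.46, 0.49 and 0.46. These 4 differences lay far closer together than the samples of either group.

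**Figure D4:**
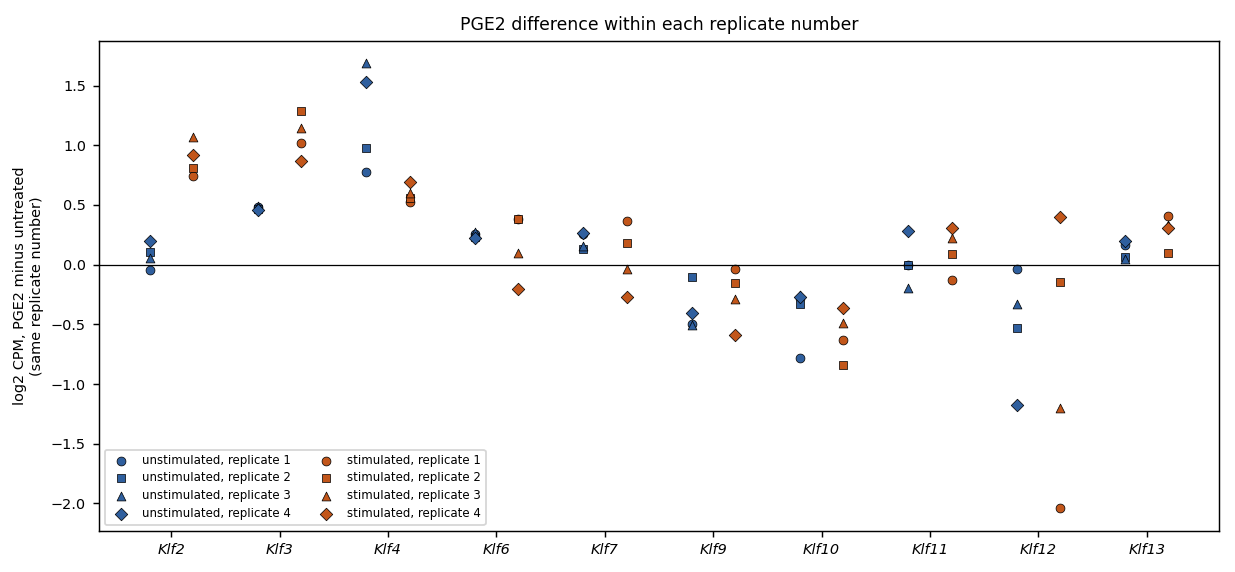
Difference in log2 CPM between the PGE2 and the untreated sample of the same replicate number (vertical axis) for each gene, in unstimulated (blue) and stimulated cells (orange), with 1 marker shape per number. The 4 differences of *Klf3* in unstimulated cells lie between 0.46 and 0.49, and those of *Klf2* lie around 0 in unstimulated and between 0.74 and 1.07 in stimulated cells.

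With the replicate number as a block, 7 of the 10 genes passed the adjusted p in unstimulated cells, where 47.8% of all genes did. To *Klf4* and *Klf6* it added *Klf3* (adjusted p = 1.91e-08, 6.23e-19 to 0.347 over its alternatives), *Klf7* (0.00981, 0.00981 to 0.517), *Klf9* (0.0290, 0.0290 to 0.158), *Klf10* (0.00123, 0.000946 to 0.188) and *Klf13* (0.00529, 0.00189 to 0.564). Without the block these 5 had adjusted p-values of 0.109, 0.192, 0.0613, 0.0675 and 0.275. *Klf10* had an adjusted p of 0.0205 without PGE2 replicate 4. *Klf9* was the 1 member whose groups did not overlap in unstimulated cells, where 28.1% of genes did not, with 4.23, 3.76, 4.59 and 4.39 CPM in untreated and 2.99, 3.49, 3.22 and 3.31 CPM in PGE2 samples. All 4 PGE2 samples were lower.

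Within replicate numbers, 8 members moved one way in all 4 pairs of unstimulated cells (5 higher, 3 lower), and so did 55.2% of the 15096 genes. In stimulated cells 6 members did (4 higher, 2 lower), and so did 51.6% of genes. *Klf3*, *Klf4* and *Klf13* were higher and *Klf9* and *Klf10* lower with PGE2 in all 4 pairs of both states, whereas *Klf2* was lower in number 1 of unstimulated cells by 0.04 on the log2 scale.

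Whether the effect of PGE2 differed between the states was tested in 1 fit of all 16 samples. This interaction was past the adjusted p for 0.749% of 15096 genes and for *Klf2* among the 10 (log2 difference of the effects 0.83, SE 0.178, adjusted p = 0.0391). The call depended on the processing. Of 25 alternatives 17 put it above the threshold, among them 13 of the 16 fits that left out 1 sample, with adjusted p-values of up to 0.108 in those (without unstimulated untreated replicate 2) and a log2 difference of 0.72 to 0.93. In the 3 fits without unstimulated untreated replicate 4, unstimulated PGE2 replicate 1 or stimulated PGE2 replicate 4 it stayed past it. The fit with the replicate block, and DESeq2 with and without the block, also kept *Klf2* past the threshold. The lowest adjusted p over all alternatives was 6.70e-08. For *Klf3* the difference of the effects was 0.60 (95% interval 0.010 to 1.19, adjusted p = 0.521). That of *Klf4* was -0.78 (-1.76 to 0.21, adjusted p = 0.710), and those of the other 7 lay between -0.23 and 0.17. A different effect of PGE2 in the 2 states was therefore not shown for any of these 9 genes.

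Stimulation changed more of the genes, as it did across the transcriptome. Without PGE2, 66.5% of 14205 tested genes passed the adjusted p, and 6 of the 10 members did, 2 higher (31.7% of all genes) and 4 lower (34.8%). The share of DEGs was 23.2% of all genes and 4 of the 10 members. *Klf2* decreased by 2.63 (SE 0.129, adjusted p = 1.45e-08), to 0.161 times its level, and *Klf3* decreased by 2.59 (SE 0.184, adjusted p = 1.25e-07), both on the log2 scale. In each the highest stimulated sample was far below the lowest unstimulated one, at 32.7 against 139 CPM for *Klf2* and at 9.92 against 37.3 CPM for *Klf3*.

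The SIN3A-binding genes went in both directions on stimulation. *Klf13* fell from 302, 278, 263 and 232 CPM to 101, 111, 99.2 and 116 CPM (log2 fold change -1.35, adjusted p = 6.84e-08). *Klf11* fell from 7.14, 6.79, 8.27 and 7.19 CPM to 3.49, 3.34, 3.83 and 4.43 CPM (log2 fold change -0.98, adjusted p = 3.37e-05). *Klf9* went the other way, from 4.23, 3.76, 4.59 and 4.39 CPM to 11.7, 12.6, 11.3 and 10.8 CPM, and rose 2.70-fold (log2 fold change 1.44, adjusted p = 4.05e-07). None of these 3 pairs of groups overlapped. The fourth, *Klf10*, was at 18.8 to 24.6 CPM without and 24.5 to 27.2 CPM with stimulation, which overlapped slightly (log2 fold change 0.19, adjusted p = 0.0802). With the replicate block its adjusted p was 0.0370 (0.0285 to 0.391 over the alternatives), and without unstimulated untreated replicate 4 it was 0.0429.

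Of the activator group, *Klf6* rose on stimulation by 0.78 on the log2 scale (SE 0.0857, adjusted p = 4.73e-06), from 142 to 181 CPM up to 248 to 312 CPM with no overlap. *Klf4* had a log2 fold change of 0.38 (95% interval -0.19 to 0.94, adjusted p = 0.218). *Klf7* had one of -0.27 (95% interval -0.56 to 0.022, adjusted p = 0.0936, and 0.0438 without stimulated untreated replicate 4). The groups of both overlapped. With no overlap in 6 of 10 members, the family stood beside 59.2% of all genes.

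In cells exposed to PGE2, 7 of the 9 members tested passed the adjusted p on stimulation, 2 higher and 5 lower, where 64.2% of 14507 genes did (32.5% higher and 31.7% lower). Here 4 members and 22.1% of all genes were DEGs. *Klf2* decreased by 1.78 and *Klf3* decreased by 1.96 on the log2 scale (adjusted p = 1.19e-06 and 4.06e-06). *Klf13* decreased by 1.15 (adjusted p = 2.22e-06), *Klf11* decreased by 0.83 (adjusted p = 0.00153) and *Klf7* decreased by 0.40 (adjusted p = 0.00985). *Klf9* rose by 1.61 (adjusted p = 1.43e-05) and *Klf6* by 0.73 (adjusted p = 7.99e-05). These values stand beside those without PGE2 and share no samples with them, and their difference is the interaction given above. Groups did not overlap in 7 of 10 members and in 58.7% of all genes. *Klf4*, which lay at 1.33 to 4.48 CPM in unstimulated and 1.78 to 2.90 CPM in stimulated PGE2 samples, had a log2 fold change of -0.38 (95% interval -1.17 to 0.41, adjusted p = 0.370).

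*Klf12*, a repressor of the AP-2α gene, was barely detected, with 1 to 20 reads per sample. It was at 0.397, 0.599, 0.535 and 0.602 CPM in unstimulated untreated cells and at 0.386, 0.394, 0.413 and 0.229 CPM with PGE2. The stimulated samples were at 0.344, 0.330, 0.565 and 0.211 CPM without and 0.0336, 0.293, 0.208 and 0.299 CPM with PGE2. All groups overlapped their neighbours, and the log2 fold changes that could be fitted were -0.58 for PGE2 in unstimulated cells (adjusted p = 0.179, 95% interval -1.25 to 0.083) and -0.58 for stimulation without PGE2 (adjusted p = 0.146). A change in *Klf12* was not detectable at this depth.

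The gene bodies lie on 10 chromosomes of GRCm38. *Klf2* is at chr8:72319033-72321656 on the plus strand, *Klf3* at chr5:64803388-64832901 (plus), *Klf4* at chr4:55527143-55532466 (minus), *Klf6* at chr13:5861482-5870394 (plus) and *Klf13* at chr7:63886351-63938915 (minus). *Klf9* is at chr19:23141226-23166911 (plus) in the deposited table and ends at 23168134 in GENCODE M21, while *Klf10* is at chr15:38291463-38300706 (minus). The sources used here do not say if reads were counted by strand. Antisense *Gm20033* (mean 1.02 CPM) covers 3.59% of the exon bases of *Klf3*, and antisense *Gm26649*, with no read in any sample, covers 39.3% of those of *Klf7*. Without strand, reads from these bases cannot be told apart, so the levels of *Klf7* are uncertain.

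Genes known as targets of KLF2 or KLF4 in T cells were listed next to the factors. This list was written with earlier results of these data known, so counts over it are a description only. Of 6 tested, 4 rose with PGE2 in stimulated cells, where 6.04% of all genes did. *S1pr1*, the receptor for egress from lymph nodes, was at 35.9, 29.2, 26.5 and 25.0 CPM without and 66.6, 57.9, 64.1 and 58.9 CPM with PGE2. Like *Klf2* its groups were far apart (log2 fold change 1.09, adjusted p = 0.000360). *Ccr7*, the homing receptor (1.41, adjusted p = 0.00153), *Cdkn1b*, the cell cycle inhibitor p27 (1.07, adjusted p = 0.0322), and *S1pr4*, a related receptor (0.76, adjusted p = 0.00723), were the other 3. *Itgb7*, an integrin subunit for homing to the gut, had a log2 fold change of -0.25 (adjusted p = 0.115), and *Cdkn1a* one of -0.11 (adjusted p = 0.754). With the replicate block 4 were higher and 1 lower, where 39.8% of all genes passed in either direction. The count of higher genes was 3 without untreated replicate 1, 2 or 3 and without PGE2 replicate 3 or 4. It was also 3 on log2(FPKM + 1) without a filter. In unstimulated cells, where *Klf2* was not past the threshold, *Ccr7* (0.63, adjusted p = 1.42e-05) and *Cdkn1b* (0.34, adjusted p = 0.0245) rose, as did 12.9% of all genes. The block brought the count to 4 higher and 1 lower, where 47.8% of all genes passed in either direction. Of the 6, 1 was higher without untreated replicate 2, 3 or 4, without PGE2 replicate 1 or 2, in the fit of all 16 samples and in the 3 limma settings on FPKM. Apart from the fits with the block, 1 was lower without untreated replicate 4 or PGE2 replicate 3, with no filter, with DESeq2 and in the fit of all 16 samples. In the main fit of unstimulated cells, *S1pr1* had a log2 fold change of 0.30 (adjusted p = 0.306) and *Itgb7* one of -0.24 (adjusted p = 0.0548). Stimulation lowered 5 of the 6 both without and with PGE2, where 34.8% and 31.7% of all genes fell. For *S1pr1* the log2 fold changes were -3.10 and -2.28, while *Cdkn1a*, the cell cycle inhibitor p21, rose (1.37 and 1.33). With edgeR 0 of the 6 had an interaction past the adjusted p. At an unadjusted p below 0.05 there were 4, all positive, beside 1415 of 15096 genes. DESeq2 put 1 past the adjusted p, beside 1.57% of all genes. With the replicate block 2 were past it, where 2.70% of all genes were, and 3 with DESeq2 and the block, where 4.66% were. The count was 1 without stimulated untreated replicate 4, without stimulated PGE2 replicate 1 or with no filter. The interaction of *Ccr7* was 0.80 (edgeR adjusted p = 0.0695). Whether KLF2 protein acted on them was not tested.

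Of 16 regulators and partners, also listed with earlier results known, 15 were tested in stimulated cells. PGE2 raised 2, where 6.04% of all genes rose. These were the coactivator genes *Ep300* (log2 fold change 0.37, adjusted p = 0.0148) and *Crebbp* (0.28, adjusted p = 0.0263). With the replicate block 6 were higher and 1 lower, where 39.8% of all genes passed in either direction. DESeq2 with the block gave 5 and 1, beside 32.6% of all genes. The main count of 2 became 0 without replicate 3 of either group. It was 1 without untreated replicate 1 or 2, with no filter, in the fit of all 16 samples and in the 3 limma settings. At an unadjusted p below 0.05, edgeR with all samples had 5, all higher. DESeq2 put 3 past the adjusted p, beside 16% of all genes. *Foxo1*, whose product drives *Klf2*, had a log2 fold change of 0.21 (adjusted p = 0.158 without the block). In unstimulated cells 5 of 14 rose, where 12.9% of all genes did. These were *Mapk7*, which encodes the kinase ERK5 (0.26), *Mef2d* (0.26), *Smurf1*, a ubiquitin ligase for KLF2 (0.35), *Sin3b* (0.19) and *Ep300* (0.29). With the block 8 were higher and 3 lower, where 47.8% of all genes passed in either direction. Without untreated replicate 4 or PGE2 replicate 1, 2 were higher and 1 lower, 2 were higher without PGE2 replicate 2 and in the 3 limma settings, and 3 were without untreated replicate 3. Without PGE2, stimulation lowered 9 of 15 and raised 3, where 34.8% of all genes fell and 31.7% rose. Among the lower genes were *Foxo1* (-0.80), *Elf4* (-1.27), an activator of *Klf4* and *Klf2*, and *Ep300* (-1.04), and *Ctbp2* (2.09) was higher. With PGE2 the counts were also 9 and 3, where 31.7% of all genes fell and 32.5% rose. The interaction was past the adjusted p for 0 of the 15 with edgeR and with DESeq2, and 0 had an unadjusted p below 0.05.

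The 16 other Krüppel-like factor and Sp genes were mostly low, and 6 passed the filter in each pairwise comparison, *Klf8*, *Klf16* and *Sp1* to *Sp4*. *Klf16* was not low. It was at 15.2 to 19.3 FPKM in unstimulated untreated and 32.7 to 52.2 FPKM in stimulated untreated samples. In the latter group each sample was above each *Klf2* sample. Stimulated PGE2 samples held 24.5 to 50.3 FPKM of *Klf16*. For PGE2, 0 of these 6 were past the adjusted p in either state with edgeR. At an unadjusted p below 0.05 the count was 1 in each state. DESeq2 put 1 past the adjusted p in stimulated and 0 in unstimulated cells, beside 16% and 31% of all genes. The block gave 2 and 1, beside 39.8% and 47.8% of all genes. The nearest was *Sp4* in stimulated cells, with a log2 fold change of 0.25 (adjusted p = 0.0595). Stimulation without PGE2 lowered *Klf8*, the closest relative of *Klf3* and *Klf12* (-1.34), *Sp3* (-1.04) and *Sp4* (-0.49) and raised *Klf16* (1.32). With PGE2 it lowered *Klf8* (-0.98) and *Sp3* (-0.85) and raised *Klf16* (1.39). *Klf1*, *Klf5*, *Klf14*, *Klf15* and *Klf17* had at most 20 reads in any sample.

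The genes whose profile over the 16 samples was most like that of a member were sought for the 3 members with the widest range of group means. The measure was the root mean square (RMS) difference of log2 CPM after centring each gene, over the 8863 genes whose mean was 10 CPM or more. For *Klf2* they were *Tmem71* (0.1005), *Cmah* (0.135) and *S1pr4* (0.153), against a median of 1.19 over all genes. For *Klf3* they were *Tnfrsf26* (0.152), *Card6* (0.157) and *Arl5c* (0.174), against a median of 1.25. *Tnfrsf26* was at mean levels of 47.5 and 63.7 CPM in unstimulated and 8.999 and 18.3 CPM in stimulated cells without and with PGE2. For *Klf9*, *Clpp*, *Gps1* and *Zdhhc13* all had a difference of 0.111, against a median of 0.782. The samples of the 4 groups share these profiles, and no function is read from them.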

How the data were processed

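RNA-seq of 16 samples in 4 groups was analysed. According to the methods and the submitters' processing notes, the authors made poly(A) libraries, aligned paired reads to GRCm38 with HISAT2 2.0.5 and counted them on genes with featureCounts 1.5.0-p3. The authors deposited these counts per gene, whole and not normalized, and the authors also deposited FPKM values made from counts and gene length. These equalled the count over length and summed count times a factor of 0.878 to 1.11 per sample. Annotation release and use of strand are not given in the sources used here. The table of all genes also holds gene annotation columns.

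The summed counts per sample were 22678254 to 42950763, so spread between replicates limits the precision except for genes of few reads. Counts were tested with edgeR 4.0.16 in R 4.3.3 (filterByExpr with a minimum count of 10, TMM, glmQLFit and glmQLFTest, two-sided) with Benjamini-Hochberg adjustment over all genes tested. Pairwise fits held 8 samples and no covariate, and the interaction fit held 16. An adjusted p below 0.05 was past the threshold, and a DEG also had a fold change of at least 2. CPM were scaled with TMM, and log2 CPM used a prior count of 2. The fits were tested on simulated data.

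The alternatives were RLE and upper-quartile factors, no filter, DESeq2 1.42.0 (Wald test), a replicate block, 1 fit of all 16 samples, glmTreat against a fold change of 1.5, limma 3.58.1 on log2(FPKM + 1) and on log2(FPKM + 0.1) where the mean FPKM was 1 or more, log2(FPKM + 1) without that filter, leaving out each replicate, and DESeq2 with the block, which was chosen after seeing the data. What a replicate number marks is not stated. Deviations from the group means correlated between same-numbered samples at 0.190 to 0.423 for PGE2 in stimulated cells. The values were 0.137 to 0.444 for PGE2 in unstimulated cells and 0.112 to 0.359 for stimulation without PGE2. The main fits leave this pairing out, and the fits with the replicate block take it in. With PGE2, stimulation gave 0.0439 to 0.281, and the numbers were not treated as pairs there. As the same numbers run through all 4 groups, a pairing is not excluded in that comparison.

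The genes named are the 10 members, the genes of 3 lists (targets, regulators and partners, other family genes) written from general knowledge, the cell type markers, and for likeness the 3 nearest genes of the 3 members with the widest range. A further gene of the list of targets is not reported here, and the counts leave it out. Members and lists were chosen with earlier results of these data known. Genes were matched by Ensembl identifier to GENCODE M21 for exons.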

Additional observations from a re-analysis of the deposited data

Results flagged for a closer look

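In 3 of 40 tests of a group of 4 samples, a single sample stood apart from the other 3 (above the 95% critical value of Dixon's test), a frequency close to the 1 in 20 that chance gives. *Klf4* in stimulated untreated cells was highest in replicate 4, at 1.77 CPM against 1.22 to 1.28. In stimulated PGE2 cells *Klf4* was also highest in replicate 4, at 2.90 CPM against 1.78 to 1.93. *Klf12* in unstimulated PGE2 cells was lowest in replicate 4, at 0.229 CPM against 0.386 to 0.413, which is 9 reads.

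The effect of PGE2 on *Klf2* was greater in stimulated than in unstimulated cells by the interaction test, by 0.83 on the log2 scale (edgeR adjusted p = 0.0391, 6.70e-08 to 0.238 over the alternatives). In the same-numbered pairs of stimulated cells *Klf2* was higher with PGE2 in 4 of 4, and in unstimulated cells in 3 of 4.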

How the results depend on the processing

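Over 48 log2 fold changes of members and 916 alternatives of them, 845 were counted as keeping direction and side of the threshold. Any alternative with the same direction and no adjusted p was counted among these. Of the others 26 were no longer past the threshold, 30 were newly past it and 15 changed sign, all of the last for values that were not past it. The cause was not tested. For PGE2 in stimulated cells the count past the adjusted p was 3 (5 with the replicate block, where the share of all genes went from 9.84% to 39.8%, 2 to 4 without 1 replicate), and the DEG count was 1 (0 in the 3 limma settings on FPKM, 1 without any 1 replicate). For PGE2 in unstimulated cells the count past was 2, beside 28.4% of all genes, and it became 4 with no filter (3975 of 26421 genes), 7 with the replicate block (47.8%), 6 with DESeq2 and the block (39.8%), 1 on log2(FPKM + 1) and on log2(FPKM + 0.1) (30.9% and 30.8%), 0 on log2(FPKM + 1) without a filter (11.6%), and 1 to 3 without 1 replicate (1 without untreated replicate 2 or 3). The DEG count of 1 became 0 with glmTreat and in the 3 limma settings. For the interaction, the count of 1 became 0 with RLE factors, in the 3 limma settings and in 13 fits without 1 replicate (range 0 to 1). The replicate block kept *Klf2* there (adjusted p = 0.00240) and brought no other member past the threshold. For stimulation the counts past were 6 to 7 without and 7 with PGE2 when 1 replicate was left out, and the DEG counts 4 to 5 and 4. Over the other settings the counts past were 6 to 7 both without and with PGE2, and the DEG counts 3 to 6 and 3 to 4. In the comparison of stimulation with PGE2, whose numbers were not treated as pairs, the block left 7 members past the adjusted p.

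The sign of small values changed. For PGE2 in stimulated cells *Klf7* was -0.034 without stimulated untreated replicate 1 (-0.034 to 0.14 without any 1 sample). For PGE2 in unstimulated cells *Klf2* was -0.029 without untreated replicate 4 (-0.029 to 0.18 without any 1 sample), and *Klf11* was -0.046 without PGE2 replicate 4 (-0.046 to 0.11). *Klf10* on stimulation with PGE2 was -0.078 with upper-quartile factors, -0.0075 with no filter, and -0.084 and -0.011 without unstimulated PGE2 replicates 1 and 2 and -0.044 and -0.014 without stimulated PGE2 replicates 3 and 4 (-0.084 to 0.15). In the interaction, *Klf9* was -0.0066 on log2(FPKM + 1) with and without the filter. *Klf12* was 0.0026 on log2(FPKM + 1) without the filter, 0.033 without stimulated untreated replicate 3 and 0.14 without stimulated PGE2 replicate 1 (-0.46 to 0.14), and *Klf11* was -0.036 without stimulated PGE2 replicate 4 (-0.036 to 0.24). Depth limits *Klf12* and *Klf4*, with 1 to 20 and 17 to 176 reads per sample.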
